A study of Mus musculus with 4 samples.

Results

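The genes described here are 57 members of fatty acid and triglyceride metabolism in mouse liver, out of 21887 protein-coding genes on assembled chromosomes, and the measurement is the position of H3K23pr peaks across their bodies and flanks. The members came from a list of symbols, and all of them matched a gene of the RefSeq table for GRCm38, the assembly of mm10. They comprised 16 genes of fatty acid synthesis, 20 of glyceride storage and lipolysis, 5 of uptake, 14 of oxidation and 2 fasting regulators. A peak was assigned to a gene when it overlapped the gene or the 5 kb on either side of it. Chromatin came from livers of male C57BL/6 mice of 2 genotypes, RPN11 flox/flox, called WT in the sample titles, and a hepatocyte-specific RPN11 knockout, called KO. Each genotype had 1 anti-H3K23pr immunoprecipitate (IP) and 1 input. The labels name no Cre driver, age, diet or number of animals, and whole liver still holds the cells that a hepatocyte deletion leaves intact. With 1 library per genotype every WT and KO value below compares these libraries, without a replicate check and without a test, and all intervals are exact 95% intervals that cover counting error only.

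H3K23pr is the propionyl form of lysine 23 on histone H3, an acyl mark whose donor, propionyl-CoA, is a product of odd-chain fatty acid and branched-chain amino acid breakdown. RPN11 (gene Psmd14) removes ubiquitin chains at the proteasome lid, and the series title places it in fatty liver disease. In the liver, fatty acids are made from citrate-derived acetyl-CoA through malonyl-CoA, stored in droplets as triglyceride after stepwise esterification of glycerol phosphate, and burned in mitochondria and peroxisomes after the carnitine shuttle or direct uptake. Malonyl-CoA inhibits the entry step of the shuttle, which ties synthesis to oxidation.

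Promoters were examined first, because acyl marks are commonly sought there. RefSeq promoter entries of GRCm38.p6 (250 bases before and 50 after a start) existed for 45 of the 57 members, with 59 listed starts. None of these 59 windows held a peak in either list. A count of 0 allows a share of up to about 5.08%, an approximate limit taken as 3 over 59 and not an exact interval. Over 21263 such windows of all protein-coding genes the share with a peak was 0.442% in WT and 0.193% in KO, so the members' count of 0 is near the background. A WT peak lay within 1 kb of a listed start at Lipe and Etfa, and a KO peak at Me1, against 3.3% of all listed starts in WT and 1.5% in KO. The 250 bases before the starts closest to a WT peak (Lipe, 625 bp past the start) and to a KO peak (Me1, 482 bp past its second listed start) are printed here, with those of Acadl, the member that ranked highest among genes of like length in KO. They are on the minus strand at chr7:25390113-25390362, chr9:86687278-86687527 and chr1:66863310-66863559, in GRCm38.p6, written 5′ to 3′, and capitals mark a CCAAT box, here read on the opposite strand.
Lipe: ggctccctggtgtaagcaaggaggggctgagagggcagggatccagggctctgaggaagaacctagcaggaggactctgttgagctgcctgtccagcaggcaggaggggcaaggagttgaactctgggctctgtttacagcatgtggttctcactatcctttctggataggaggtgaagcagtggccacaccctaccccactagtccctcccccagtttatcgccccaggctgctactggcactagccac
Me1: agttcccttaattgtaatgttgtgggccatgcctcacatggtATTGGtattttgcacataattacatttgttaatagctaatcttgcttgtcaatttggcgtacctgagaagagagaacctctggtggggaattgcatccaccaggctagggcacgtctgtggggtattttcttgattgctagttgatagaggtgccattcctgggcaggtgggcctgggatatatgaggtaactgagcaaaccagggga
Acadl: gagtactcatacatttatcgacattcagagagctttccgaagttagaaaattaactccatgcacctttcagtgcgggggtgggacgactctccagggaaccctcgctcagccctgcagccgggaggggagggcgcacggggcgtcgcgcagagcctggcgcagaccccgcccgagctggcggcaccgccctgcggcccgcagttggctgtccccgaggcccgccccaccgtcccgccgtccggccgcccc
The CCAAT box (CCAAT, either strand) was in 37.3% of the member windows and 35.4% of all windows of 250 bases. The E-box CACGTG, the core bound by carbohydrate-response and sterol-response factors among others, was in 10.2% of member windows and 6.63% of all, and it was in none of the 3 sequences above. The sterol element TCACCCCAC was in no member window and in 0.48% of all windows. These are matches of letters only.

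Most peaks in both lists were low. After duplicate filtering the IPs held 13615838 fragments in WT and 15468265 in KO, and the authors' caller listed 54397 and 41907 peaks. A peak needed at least 4 IP fragments at its summit, and the caller kept up to 2 fragments with identical ends. Fragments averaged 97 bp (WT) against 71 bp (KO), so peak width differs between the libraries and is not compared. Psmd14 (chr2:61711694-61800376) held 7 WT and 10 KO peaks of at most 6 and 7 fragments, which says nothing of its deletion. The fold of a peak below is the authors' own value, the summit fragments plus 1 over the local background plus 1.

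Over all 57 genes the number of peaks was close to that of genes of like length. The members held 85 WT peaks and 69 KO peaks, all distinct and none under another protein-coding gene. For each member, protein-coding genes no more than 10% longer or shorter gave a mean, and these means summed to 83.7 peaks in WT and 61.9 in KO. The ratio of members to these sums was 1.02 in WT (interval 0.81 to 1.26) and 1.11 in KO (0.87 to 1.41). It depended on the choice of peaks in WT, at 1.87 with a caller q of 0.05 or smaller and 1.55 with at least 6 fragments. In KO it was 1.97 against the median of genes of like length in place of their mean. That median is an unlike measure, as it was 0 for many members whose mean was above 0. At least 1 peak was found at 32 members in WT, where genes of like length gave 32.6, and at 20 in KO, where they gave 22.9. Among all protein-coding genes 47.7% had a WT peak and 33.3% a KO peak. Both lists had a peak at 15 members (24.3% of all genes), WT alone at 17 (23.4%), KO alone at 5 (9.05%), and neither at 20, against 19.1 from genes of like length. The KO over WT ratio of peaks was 0.81 at the members (interval 0.58 to 1.13) and 0.744 over all gene windows.

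**Figure D1:**
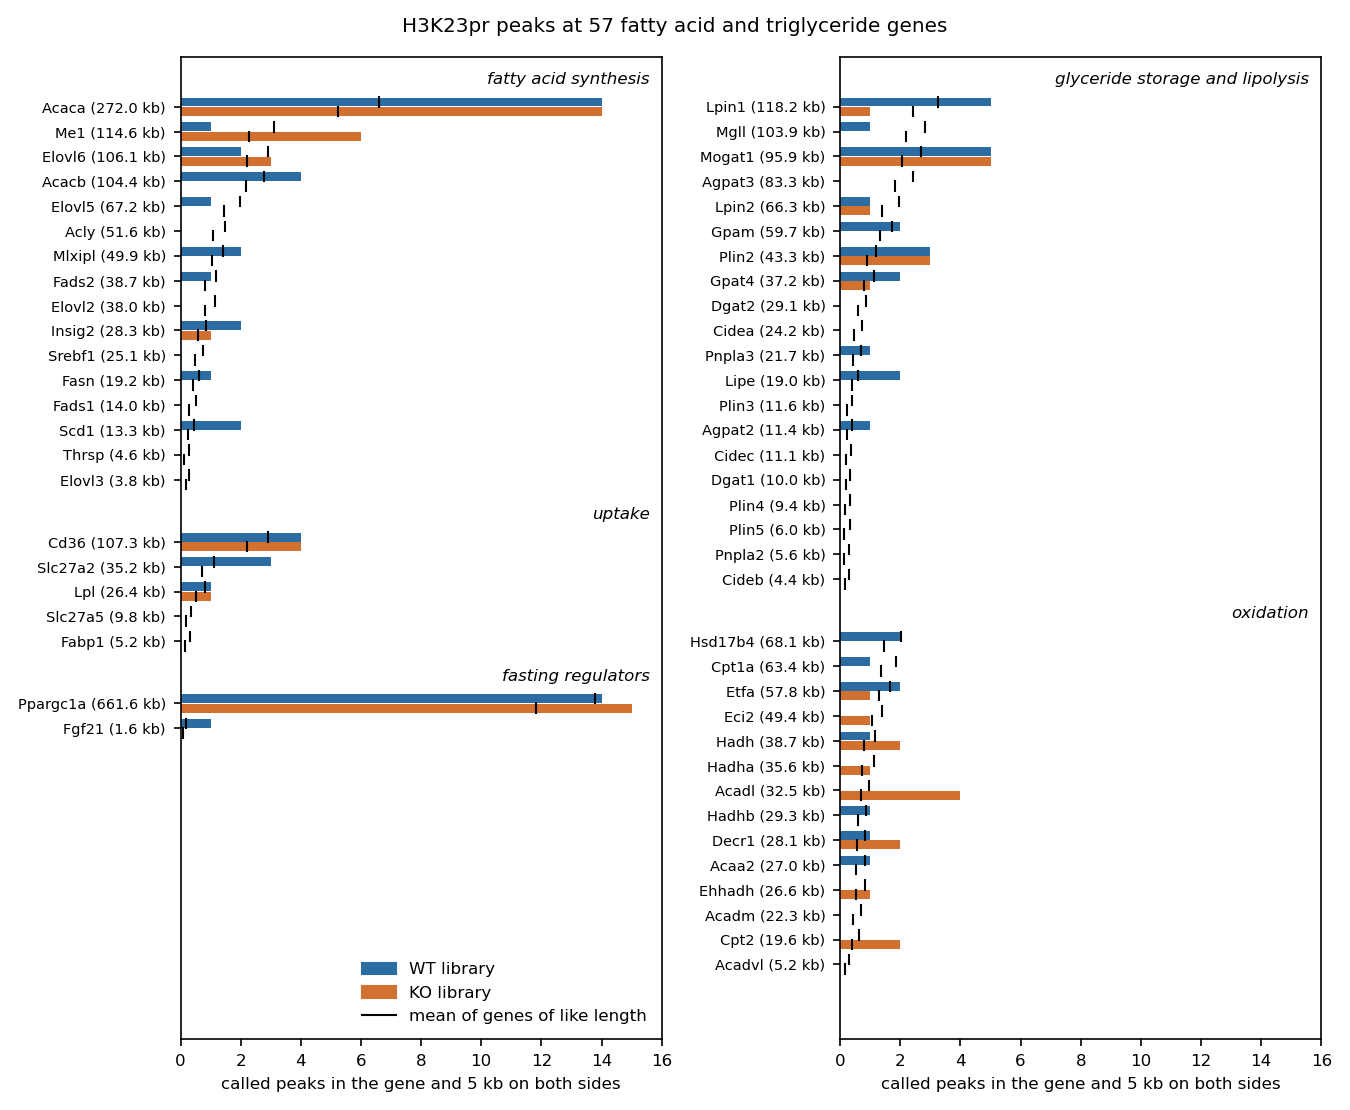
Called H3K23pr peaks at each of the 57 genes, with gene length in brackets: WT bars are blue and KO bars orange, and the black tick is the mean of genes within 10% of that length. Acaca has 14 peaks in both lists and stands past its ticks of 6.59 and 5.25, most short genes have none, and Me1 and Acadl have more KO than WT peaks while Acacb, Lpin1 and Slc27a2 have fewer.

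The genes of fatty acid synthesis held 30 WT peaks, against 26.3 for genes of like length, and 24 KO peaks, against 19.4. The margin rested on Acaca (chr11:84129635-84401651), the cytosolic acetyl-CoA carboxylase that makes malonyl-CoA. Acaca held 14 peaks in each list, where genes of like length had a median of 6 in WT and 4 in KO. It stood at percentile 97.8 of these 180 genes in WT and 94.4 in KO. It was the only member in the top 2.5% of its genes of like length in WT, and Acadl the only one in KO, where 2.36% and 2.16% of all genes were so placed. Without Acaca the remaining 15 genes held 16 WT peaks (0.81 of like length, 0.46 to 1.32) and 10 KO peaks (0.71, 0.34 to 1.3).

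All Acaca peaks were low, at 4 to 8 fragments in WT and 4 to 6 in KO. The tallest WT peak (chr11:84204647-84204934) had 8 fragments and a fold of 5.28. The leading peak lay 71.1 kb from the 5′ edge of the gene in WT and 69.9 kb in KO, and from there peaks were spread over 186.7 kb and 190.7 kb. The listed RefSeq start of Acaca is itself 65.8 kb inside the gene, and no peak of either list lay in that 24.2% of the gene. At 1 place the lists coincided: a WT peak of 6 fragments at chr11:84234015-84234241 and a KO peak of 5 fragments at chr11:84234048-84234346, with a depth-scaled KO over WT ratio of 0.734 (0.177 to 2.88).

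Acacb and Me1 differed most between the libraries among the other synthesis genes. Acacb (chr5:114146321-114250761), the carboxylase whose malonyl-CoA restrains the carnitine shuttle, held 4 WT peaks of 4, 5, 5 and 8 fragments and none in KO, where genes of like length had a median of 3 and 1. Its tallest (chr5:114187181-114187329) had a fold of 5.2. Me1 (chr9:86581363-86695914), the malic enzyme that supplies NADPH, held 1 WT peak of 6 fragments, in its downstream flank, and 6 KO peaks of 4 to 8 fragments, all in its body, against medians of 3 and 2. Its tallest KO peak (chr9:86686742-86686849) had 8 fragments and a fold of 5.74, and is the one beside the start printed above. A difference between lists at least as large and in the same direction was seen at 10.8% of genes of Acacb's length. For Me1 the share was 3.66%. All such shares count the same direction only.

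**Figure D2:**
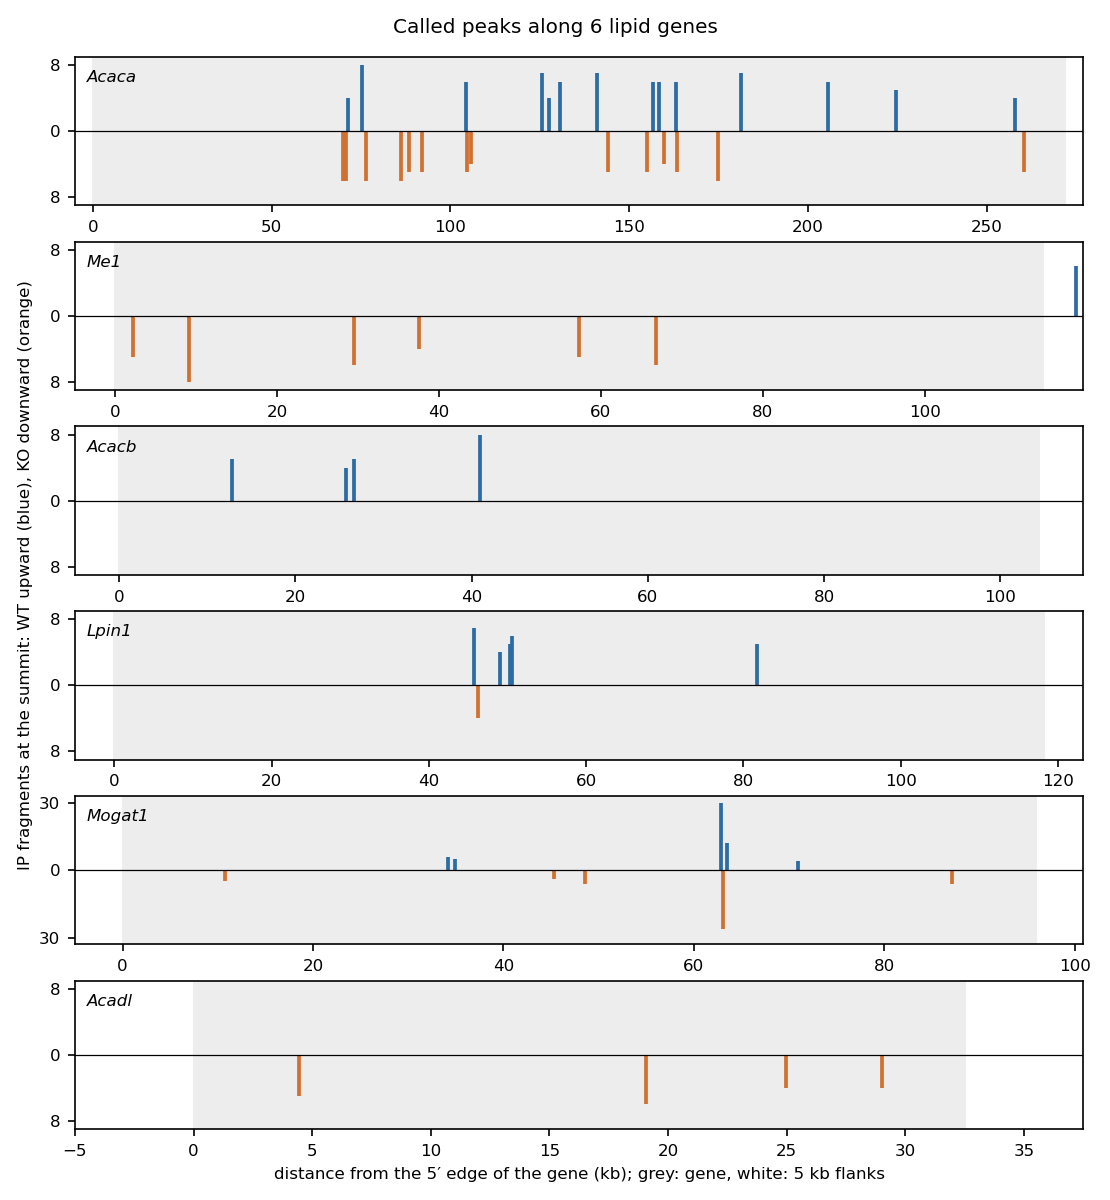
Position of every called peak along Acaca, Me1, Acacb, Lpin1, Mogat1 and Acadl by distance from the 5′ edge of the gene in kb; the grey band is the gene and the white margins are 5 kb. Line height is the number of IP fragments at the summit, upward for WT and downward for KO, on a wider scale for Mogat1, whose 30 and 26 fragment peaks fall at the same place, while elsewhere lines of the 2 lists seldom meet.

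The other synthesis genes had 0 to 3 peaks. Elovl6, an elongase of long-chain acids, held WT peaks of 8 and 7 fragments and KO peaks of 5, 4 and 5, where genes of like length had a median of 3 and 1. Its strongest were at chr3:129587712-129587873 in WT (fold 4.7) and chr3:129581650-129581755 in KO (3.83), so they did not overlap. Fasn, the fatty acid synthase, had a single WT peak (chr11:120819189-120819340) of 9 fragments, but on a local background of 1.51 fragments, so its fold was 3.99. Scd1, the stearoyl-CoA desaturase, held 2 WT peaks of 6 fragments and none in KO. At least as large a difference in that direction was seen at 6.27% of genes of its length. The stronger Scd1 peak (chr19:44397961-44398083) had a fold of 4.11 and lay in the body, the other in a flank. Insig2, which holds the precursors of the sterol-response factors in the endoplasmic reticulum, held WT peaks of 4 and 7 fragments and a KO peak of 5. The WT peak of 7 (chr1:121334736-121334917, fold 3.26) and the KO peak (chr1:121335576-121335649, fold 3.83) both lay in the upstream flank without touching. Mlxipl, encoding the carbohydrate-response factor ChREBP, held 2 WT peaks of 5 fragments, and Elovl5 and Fads2 held 1 WT peak each. Acly, Elovl2, Elovl3, Fads1, Srebf1 and Thrsp had no peak in either list, where genes of like length had a median of 0 or 1.

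The 20 genes of storage and lipolysis held 23 WT peaks, near the 22.8 of genes of like length, and 11 KO peaks, below their 16.2 (ratio 0.68, 0.34 to 1.21). None of them had more KO than WT peaks, 7 had more WT peaks, and the KO over WT ratio was 0.48 (0.21 to 1.02). The ratio over all gene windows, 0.744, lies inside that interval. With only the peaks that had a caller q of 0.05 or smaller, the count was 3 in WT and 6 in KO, a ratio of 2.00. All gene windows gave 2.004 under that limit, so the turn in direction is that of the whole lists.

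Mogat1 (chr1:78511060-78606964), a monoacylglycerol acyltransferase, held 5 peaks in each list, against medians of 2 and 1, and the tallest peaks of all members. In KO a peak at chr1:78573760-78574559 had 26 fragments over a background of 0.82, a fold of 14.81, and ranked 27 by caller p in the whole list. In WT the same place held 2 peaks, of 30 fragments at chr1:78573812-78573965 and of 12 at chr1:78574475-78574611. Their backgrounds were 9.43 and 4.35, so their folds were only 2.97 and 2.43. The depth-scaled KO over WT ratio of summit fragments was 0.763 (0.433 to 1.33) against the taller WT peak, without correction for fragment length. On that scale the IP fragments did not differ beyond counting error, while the local background stood at 9.43 in WT and 0.82 in KO. The site lies 62.8 kb past the listed start, inside the gene, and the other Mogat1 peaks had 4 to 6 fragments at positions that differed between the lists. Without Mogat1, storage genes held 18 WT peaks, against 20.1 for genes of like length (0.9, 0.53 to 1.42), and 6 KO peaks, against 14.1 (0.42, 0.16 to 0.92). The KO over WT ratio was then 0.33 (0.11 to 0.88), an interval that still includes the 0.744 of all gene windows.

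Lpin1 (chr12:16535669-16653903), a phosphatidate phosphatase, held 5 WT peaks of 4 to 7 fragments and 1 KO peak of 4, against medians of 3 and 2. The KO peak (chr12:16607643-16607771, fold 2.99) lay 344 bp from the tallest WT peak (chr12:16608116-16608224, fold 4.73). In the same direction 14.1% of genes of like length differed by as much. Plin2, a coat protein of lipid droplets, held WT peaks of 5, 6 and 7 fragments and KO peaks of 6, 7 and 6, against medians of 1 and 0. The strongest of each, at chr4:86654438-86654569 in WT (fold 4.73) and chr4:86655175-86655316 in KO (5.1), stood close together without overlap. Gpat4, a glycerol-3-phosphate acyltransferase, had WT peaks of 4 and 8 fragments, the taller (chr8:23202792-23202929, fold 3.67) on a background of 1.45, and a KO peak of 4. Gpam, which catalyses the same step in mitochondria, had WT peaks of 4 and 5 fragments. Lipe, the hormone-sensitive lipase, had WT peaks of 7 and 6 fragments and no KO peak. Lpin2, another phosphatidate phosphatase, had a WT peak of 6 fragments (chr17:71214063-71214170, fold 3.9) and a KO peak of 4 (chr17:71223423-71223493, fold 3.19). Agpat2, Mgll and Pnpla3 had 1 WT peak each, of 6, 6 and 4 fragments. Agpat3, Cidea, Cideb, Cidec, Dgat1, Dgat2, Plin3, Plin4, Plin5 and Pnpla2 had none in either list. Genes of like length gave 7.5 such genes against these 10. Among them are both enzymes of the final acylation to triglyceride and the adipose triglyceride lipase. At their lengths genes held means of 0.34 (Dgat1), 0.87 (Dgat2) and 0.31 (Pnpla2) peaks in WT. In KO these means were 0.18, 0.6 and 0.14. Over all groups 13 of the 20 members without a peak were shorter than 15 kb, against 3 of the 37 with one.

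Uptake genes held 8 WT and 5 KO peaks, where genes of like length gave 5.5 and 3.8. Cd36, a fatty acid translocase, held 4 WT peaks of 4 to 5 fragments and 4 KO peaks of 5 to 7, none overlapping, against medians of 3 and 2. The strongest was a KO peak at chr5:17850415-17850530 with a fold of 5.1. Slc27a2, a very long-chain acyl-CoA synthetase and transporter, held WT peaks of 7, 6 and 4 fragments and none in KO. The strongest (chr2:126556337-126556509) had a fold of 4.29, and 5.12% of genes of its length differed by as much in the same direction. Lpl, the lipoprotein lipase, held a WT peak of 5 fragments in a flank (fold 3.55) and a KO peak of 4 in its body (3.19). Slc27a5 and Fabp1, both abundant liver proteins, had no peak, where genes of like length had a median of 0 in both lists.

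Oxidation was the single group of these with more KO than WT peaks. Its 14 genes held 9 WT peaks, against 15.2 for genes of like length (ratio 0.59, 0.27 to 1.13), and 14 KO peaks, against 10.6 (1.32, 0.72 to 2.22). All 5 members with a peak in KO alone were oxidation genes, namely Acadl, Cpt2, Eci2, Ehhadh and Hadha, where genes of like length gave 1.5. The KO over WT ratio was 1.56, with an interval of 0.63 to 4.07 that includes the 0.744 of all gene windows, and it was 1.11 without Acadl. Of the 14 KO peaks, 7 had 4 fragments and 5 had 5 fragments. Among peaks of at least 5 fragments the ratio was 0.88, and at 6 or more it was 0.29, so the direction turned as the low peaks were left out. All gene windows gave 0.686 and 0.65 at these heights.

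Acadl (chr1:66830839-66863309), the long-chain acyl-CoA dehydrogenase, held no WT peak and 4 KO peaks of 4, 4, 6 and 5 fragments. Genes of its length had a median of 1 WT and 0 KO peaks. It stood at percentile 98.3 of 1081 such genes in KO, and 1.11% of them differed by as much in the same direction. Its tallest peak (chr1:66844176-66844348) had a fold of 3.95, and the peak nearest its start lay 4.4 kb inside the gene.

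Cpt2, the inner-membrane enzyme of the carnitine shuttle, held KO peaks of 5 and 4 fragments and none in WT. The stronger (chr4:107913810-107913930) had a fold of 3.83, and 4.92% of genes of its length differed by as much in the same direction. Cpt1a, the outer-membrane enzyme that malonyl-CoA inhibits, held a WT peak of 7 fragments (chr19:3355147-3355250, fold 4.21) and none in KO. As large a difference in that direction was seen at 50% of genes of Cpt1a's length. The genes of the mitochondrial trifunctional protein, Hadha and Hadhb, lie side by side on chromosome 5. Hadha had a KO peak of 4 fragments and Hadhb a WT peak of 7 (chr5:30173590-30173695, fold 4.73). Differences as large were seen at 19.4% of genes of Hadha's length and 38.7% of genes of Hadhb's. Decr1, the dienoyl-CoA reductase for unsaturated chains, held the WT peak of lowest caller p among all members (chr4:15946803-15946958). This peak had 9 fragments and a fold of 5.8, and lay in the flank, and in KO 2 peaks of 7 and 4 fragments lay in the body, the taller with a fold of 5.1. Hadh, the short-chain hydroxyacyl-CoA dehydrogenase, held a WT peak of 7 fragments (chr3:131265483-131265620, fold 4.03) and KO peaks of 5 and 4. Etfa, a subunit of the electron acceptor of the dehydrogenases, held WT peaks of 7 (fold 4.73) and 5 fragments and a KO peak of 4 (2.92). Ehhadh and Eci2, which act in peroxisomal oxidation, held a KO peak of 5 fragments each. Hsd17b4, also peroxisomal, held 2 WT peaks of 4 and 6 fragments, and the thiolase gene Acaa2 1 of 6. Acadm and Acadvl, the medium-chain and very-long-chain dehydrogenases, had no peak, where genes of like length had a median of 0 in both lists.

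Nearly all peaks at the fasting regulators were at 1 long gene. Ppargc1a, the coactivator of gluconeogenic and oxidative genes, spans 661.6 kb in the table and held 14 WT and 15 KO peaks, at percentiles 52.5 and 73.8 of its 40 genes of like length, whose medians were 13.5 and 11. Its peaks had 4 to 8 fragments in WT and 4 to 6 in KO, and 13 of 14 and 10 of 15 lay before its listed start, as does 82.8% of the gene. Fgf21, a fasting hormone of the liver and 1.6 kb long, held 1 WT peak of 8 fragments (chr7:45611715-45611863), in the downstream flank, with a fold of 4.92, and none in KO.

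**Figure D3:**
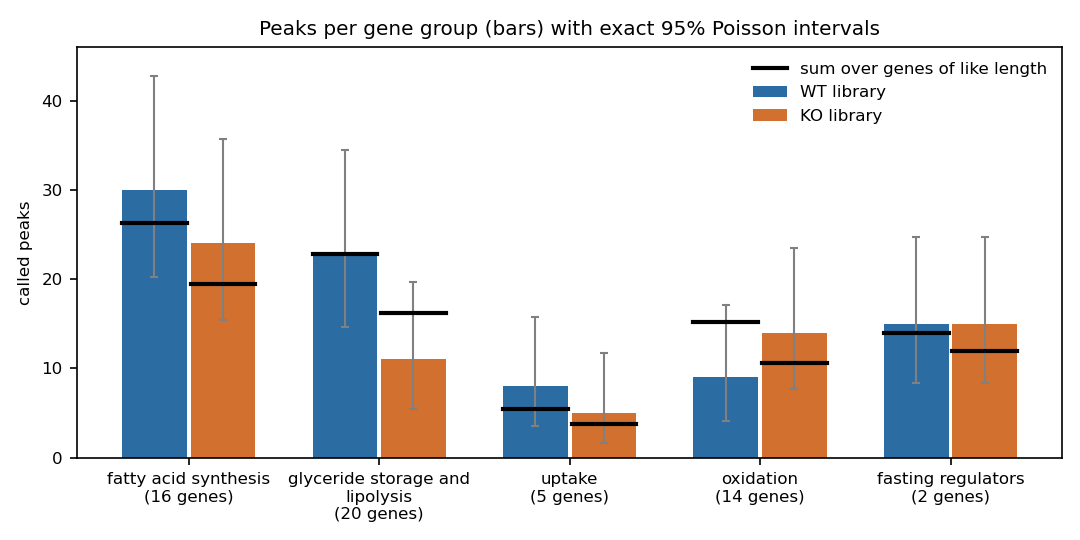
Called peaks summed over the genes of each group (bars, WT blue and KO orange) with exact 95% Poisson intervals in grey, and the sum of the means of genes of like length as a black line. Every line lies within its interval: synthesis has 30 and 24 peaks against 26.3 and 19.4, storage 23 and 11 against 22.8 and 16.2, and oxidation 9 and 14 against 15.2 and 10.6.

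Another 58 genes of the same pathways were counted in the same way. They held 53 WT peaks, against 48.4 for genes of like length, and 30 KO peaks, against 32.6. The 20 further oxidation genes held 18 WT and 6 KO peaks, a KO over WT ratio of 0.33 (0.11 to 0.88), which is the opposite direction to the 14 oxidation members. Acadsb had 3 WT and 0 KO peaks, Acad11 3 and 1, and Etfdh and Slc22a5 2 and 0, while Cyp4a10 had 0 and 2. Both oxidation lists together, combined after their values were seen, gave 27 WT and 20 KO peaks and a ratio of 0.74 (0.39 to 1.37), close to the 0.744 of all gene windows. The sites of lowest caller p were at Acad11 in WT, with 8 fragments, and at Cyp4a10 in KO, with 5. For synthesis they were at Aacs, with 8 fragments in WT, and Hsd17b12, with 7 in KO. For storage they were at Fitm1 and Ces1d with 7 fragments each, and for uptake at Lipc with 7 and Vldlr with 5. Markers of cell types were counted as well. The 6 hepatocyte markers held 4 WT peaks, against 3.8 for genes of like length, and 6 KO peaks, against 2.4 (2.47, 0.91 to 5.38), with a peak at 4 of the 6 genes in KO against 1.4. The 10 markers of other liver cells held 16 WT peaks, against 16.0, and 12 KO peaks, against 11.6 (1.03, 0.53 to 1.8). The KO over WT ratio was 1.5 (0.36 to 7.23) for the former and 0.75 (0.32 to 1.69) for the latter. None of these peaks had more than 7 fragments, and Apoa1, Serpina1a and Krt19 had none in either list. The part of cell type in the members' counts was not tested, and fewer cells of a type and less mark per cell cannot be told apart.

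Where the members differed from genes of like length was in the height of their WT peaks. Their median was 6 fragments in WT and 5 in KO, without correction for fragment length. Of the 85 WT peaks 17 had only 4 fragments, against 28.0 for genes of like length (ratio 0.61, 0.35 to 0.97). With at least 6 fragments the members held 49 WT peaks against 31.6 (1.55, 1.15 to 2.05), with at least 7 they held 23 against 11.8 (1.96, 1.24 to 2.93), and with at least 8 they held 10 against 4.0 (2.5, 1.2 to 4.6). These 10 peaks were at 9 genes, Acaca, Acacb, Elovl6, Fasn, Gpat4, Mogat1, Decr1, Ppargc1a and Fgf21, where genes of like length gave 3.7 and 5.76% of all genes had such a peak. In KO 2 members, Me1 and Mogat1, had one, against 2.4 from genes of like length and 3.34% of all genes, and the ratios at 6, 7 and 8 fragments were 1.04, 0.68 and 0.69.

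The height difference was smaller without its largest contributors. Without Acaca and Ppargc1a the WT ratio was 1.26 at 6 or more fragments (0.86 to 1.78) and 1.85 at 7 or more (1.1 to 2.93). Without peaks on a background above 2 times the lowest common level it was 1.46 at 6 (1.04 to 1.98), 1.84 at 7 (1.09 to 2.91) and 1.91 at 8 or more (0.7 to 4.15). By group the ratio at 6 or more was 1.88 for synthesis (1.16 without Acaca), 1.42 for storage and 1.13 for oxidation, whose intervals overlap. The 58 further genes gave 1.06 at 6 or more (0.65 to 1.61), 1.53 at 7 or more (0.79 to 2.68) and 1.4 at 8 or more (0.38 to 3.59). These intervals include the members' 1.55, 1.96 and 2.5, so they cannot show whether the excess of tall peaks is repeated there. At only 4 fragments the 58 further genes held 19 WT peaks against 14.8 (1.28, 0.77 to 2.0), where the members gave 0.61 (0.35 to 0.97). The members' low number of such peaks was thus not seen there, though these intervals overlap. The WT median of the further genes was 5 fragments. The comparison by height was chosen after the values were seen. Its intervals treat peaks as independent and were computed for several heights, so they are descriptions and not tests.

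**Figure D4:**
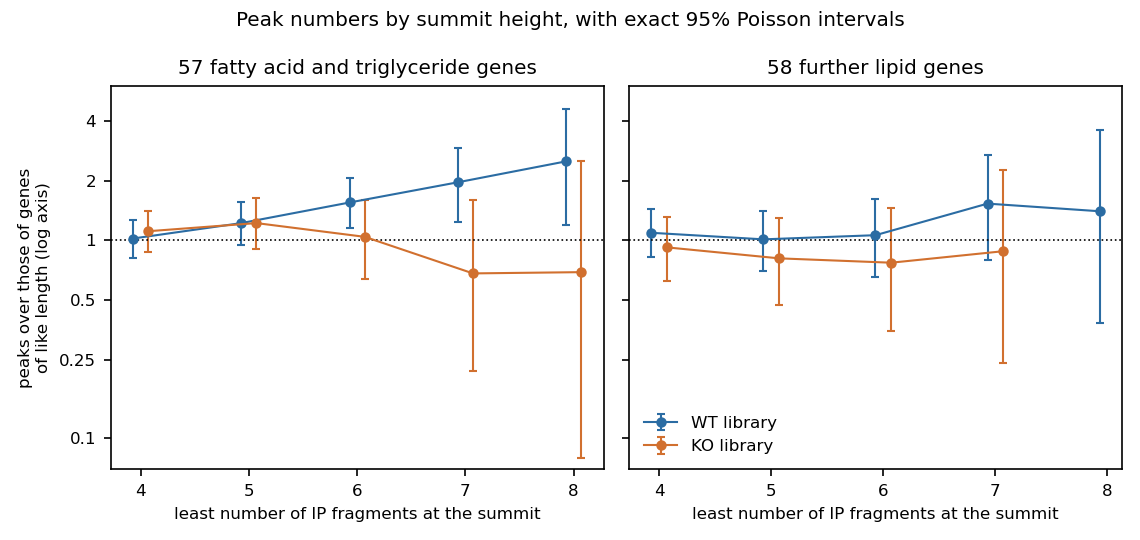
Number of peaks with at least the stated summit fragments over the number at genes of like length, on a log axis, for the 57 genes (left) and 58 further genes of the same pathways (right), with exact 95% Poisson intervals. WT (blue) goes from 1.02 to 2.5 on the left, KO (orange) stays between 0.68 and 1.22 there, and on the right all drawn intervals cross 1, with no KO point at 8 because the count is 0.

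Most peaks at the members lay in gene bodies, which also make up most of the 3642.7 kb of their windows. The raw counts of body and flank peaks are therefore not a preference for bodies. In WT 75 of 85 peaks overlapped the gene itself and 10 lay in a flank, and in KO 66 and 3. For the 45 members with a strand in the promoter table the body held 25.5 WT and 22.3 KO peaks per Mb. Their flanks held 11.1 and 6.7, resting on 5 and 3 peaks. A WT flank peak also lay at each of Scd1, Gpat4, Lpl, Acaa2 and Decr1, which have no listed strand. These rates leave them out, so the WT flank rate is not that of all members, which was not computed. Over 17492 protein-coding genes with a strand the body held 23.2 and 18.0 per Mb and the flanks 21.0 and 13.0. When the body was cut into 10 equal bins, the bin next to the 5′ edge held 4 peaks in each list, 0.56 and 0.65 of the body's mean rate, against 1.02 and 0.97 for all genes. That bin's rate was 14.4 per Mb in each list, with an interval of 3.92 to 36.8. This includes the rates of all genes, 23.8 in WT and 17.5 in KO. The bins held 4 to 11 peaks in WT and 3 to 11 in KO. Acaca gave 14 of the 71 WT and 14 of the 62 KO body peaks, and Ppargc1a gave 14 and 15.

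**Figure D5:**
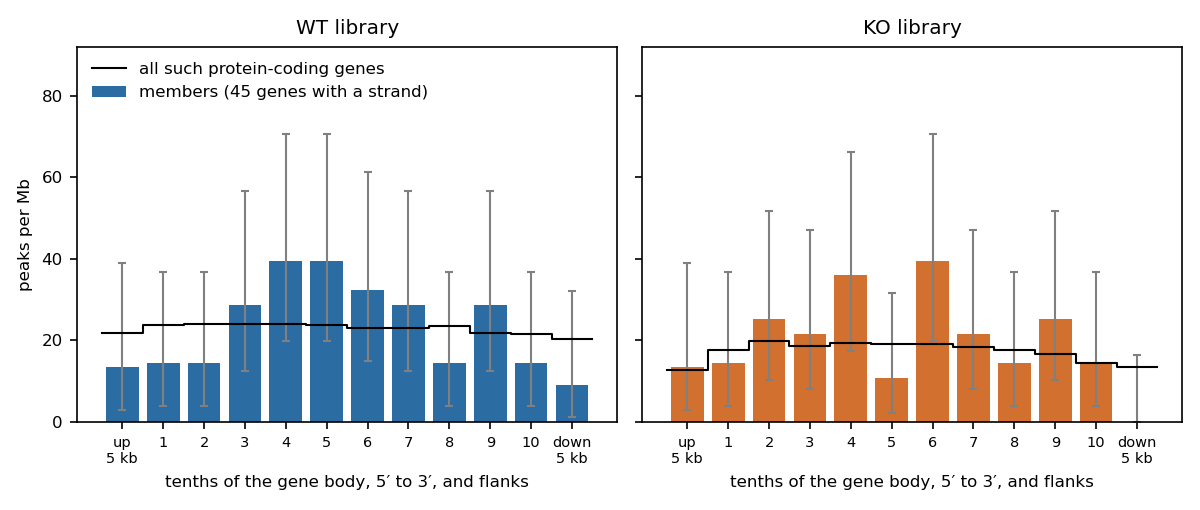
Peaks per Mb in the upstream 5 kb, 10 equal bins of the gene body from 5′ to 3′ and the downstream 5 kb, for the 45 members with a strand (bars, exact 95% Poisson intervals) and all protein-coding genes with a strand (black line). In WT both flank bars, at 13.3 upstream and 8.89 downstream, lie below the line. In KO the upstream bar, also 13.3, lies just above its line at 12.6 and the downstream bar is at 0, and all 4 flank intervals cross the line.

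WT and KO peaks of the members seldom fell at the same place. A WT peak overlapped a KO peak by at least 1 bp at 2 of the 57 genes, Mogat1 and Acaca, against 1.03% of all genes. This concerned 3 of 85 WT peaks (3.53%) and 2 of 69 KO peaks (2.9%), where genes of like length gave 0.6 peaks and where 0.84% and 1.11% of all peaks in gene windows overlapped one of the other list. Within 500 bp from edge to edge there were further pairs at Acaca, with gaps of 176 and 120 bp, and at Lpin1, with 344 bp. At the other 13 genes with peaks in both lists, such as Plin2 and Cd36, the positions differed. A gene with equal numbers in both lists, as Acaca with 14 and 14, therefore does not carry the same called sites. The low heights limit this comparison, because 34.5% of WT and 39.6% of KO peaks in gene windows stood at the least height the caller reported, and a site just under it in the other library is not listed.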

How the data were processed

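The members, the gene lists and the rules were chosen with earlier results of these data known. The submitters' processing notes name cutadapt 1.9.3 for trimming and Bowtie2 2.2.4 for alignment, with mm10 as the build. Narrow peaks were called by MACS2 2.1.1.20160309 on read pairs, each IP against its own input, at a p cutoff of 0.001 and with at most 2 fragments of identical ends, per the file headers. Libraries were not pooled. The alignment names in those headers mark duplicate removal, yet the caller still reduced 15588633 WT fragments to 13615838, and 17764217 KO fragments to 15468265. The pileup deposited by the authors, a signal, counts whole IP fragments at the summit. The deposited fold is a ratio to the local background with 1 added to both, and the background was recovered from it. The deposited p and q values are −log10 values. A Poisson p recomputed from pileup and background lay within 0.01 of the deposited −log10 value except at 3 of 54397 WT and 1 of 41907 KO peaks.

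Genes came from the RefSeq table of GRCm38.p6, which gives no exons, introns or UTRs, so peaks are placed only in a gene or its flanks. Strand and starts came from the promoter table. Genes of like length were the protein-coding genes within 10% of a member's length, without the member, and percentiles split ties evenly. Named genes were members with a peak of 8 or more fragments, an overlap between lists, the 3 highest counts of a group, a place in the top 2.5% of genes of like length, or no peak. That rule gave 47 members, and the other 10 (Elovl5, Fads2, Agpat2, Gpam, Lipe, Mgll, Pnpla3, Eci2, Ehhadh and Hadha) were named after their values were seen, to account for every member. Intervals are exact Poisson for counts and exact binomial (Clopper-Pearson) for ratios, where overlapping fragments and neighbouring peaks are not independent. Counting was tested on simulated peaks. Alternatives are given in the closing section. Python 3.11.15, pandas 2.3.3, NumPy 2.4.6 and SciPy 1.17.1 were used. Input libraries enter only through the authors' calls.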

Additional observations from a re-analysis of the deposited data

How the results depend on the processing

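With a caller q of 0.05 or smaller the members held 17 WT peaks at 13 genes and 20 KO peaks at 7. Over genes of like length this was 1.87 in WT (synthesis 2.67, oxidation 1.71), and in KO storage stood at 1.23 and oxidation at 0.31. The KO over WT ratio became 1.18 for all members, 2.00 for storage and 0.33 for oxidation, each on the other side of 1, where all gene windows went from 0.744 to 2.004. With at least 5 fragments the oxidation ratio became 0.88. With at least 6 fragments there were 49 WT peaks and 21 KO peaks at 8 genes. Over genes of like length WT stood at 1.55 (synthesis 1.88, oxidation 1.13) and KO oxidation at 0.53, and KO over WT was 0.43 for all members, 0.42 for synthesis and 0.29 for oxidation. With about 10000 strongest peaks of each list (12589 and 10522 with ties) there were 29 WT peaks at 16 genes and 18 KO peaks at 7. Over genes of like length WT then stood at 1.46 (synthesis 2.21, oxidation 1.34), KO storage at 1.42 and KO oxidation at 0.36, and KO over WT was 0.43 for synthesis, 1.2 for storage and 0.20 for oxidation. Against the median of genes of like length, in place of their mean, KO gave 1.97 for all members, 2.18 for synthesis, 1.57 for storage and 3.50 for oxidation. For many members that KO median was 0 while the mean was above 0, as for Acadl with 0 and 0.68. Ratios to medians and to means are therefore unlike measures. Dividing KO over WT by the ratio over all gene windows gave 1.09 for all members and 1.08 for synthesis. WT peaks overlapping a KO peak numbered 1 with the q limit, 1 among the strongest peaks and 6 with midpoints within 500 bp. In alternatives chosen after seeing the data, KO held 40 peaks without members longer than 200 kb, with synthesis at 0.71 of like length, and 1 WT peak overlapped a KO peak without raised backgrounds. The cause of these shifts was not tested.

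Of 182 values that answer a comparison, 135 were labelled the same over the alternatives, 38 moved and 9 were reversed. Of 432 for single genes, 299 were labelled the same and 133 moved. A value was labelled the same inside the wide interval of the reported one, or within a set fold where no interval existed. Such values can still shift, as KO over WT for oxidation did from 1.56 to 2.17 with the gene body alone. No paired analysis was possible because each genotype has 1 IP library and the labels carry no replicate numbers. Replicates could not be left out for the same reason. A summit of 4 fragments is the least the caller listed, so the depth does not show whether a site absent from a list lacks the mark.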
